A study of Mus musculus with 27 samples.

Results

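Aminoacyl-tRNA synthetases are the enzymes that attach each amino acid to its transfer RNA. The 36 mouse genes described here were taken by name: 20 encode cytosolic synthetases or their subunits, and 16, whose symbols end in 2, encode mitochondrial ones. The rule picks them by name from the 23382 gene symbols of the RNA-seq tables and uses no measured value, although the gene family itself was selected with earlier results of these data known. All 36 were found in the tables and had a mean of at least 1 TPM (an abundance per transcript length, scaled to the same fixed total in each library).

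The cells were B220+ spleen cells of mouse B cell lymphomas, B220 being a surface marker of B cells. In the SHMT2 group, haematopoietic stem cells from VavPBcl2 fetal livers (E13.5) had received the retroviral vector MSCV-SHMT2, and in the vector group the same kind of stem cells had received an empty vector. Both groups were then grown in irradiated wild type mice, and both carry the VavP-Bcl2 transgene, in which the Vav promoter drives the survival gene Bcl2 across blood cells. SHMT2 is the mitochondrial serine hydroxymethyltransferase, which passes a 1-carbon unit from serine to folate. There were 3 SHMT2 and 3 vector libraries of RNA-seq, 3 and 3 of ERRBS (a bisulfite method that reads CpG methylation), 3 and 2 of H3K4me3 ChIP-seq, and 2 and 2 of H3K4me1 ChIP-seq. The labels of the ERRBS samples give the model, the vector and B220+ cells, without the embryos, recipients or organ. The labels do not say whether replicates are separate animals, so a p-value here reflects sample-to-sample spread that may be technical in part.

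As background, cytosolic synthetases supply charged tRNAs for translation of nuclear messages, and a separate mitochondrial set, encoded in the nucleus and imported, serves the proteins encoded in mitochondrial DNA. Several cytosolic enzymes sit together with 3 scaffold proteins in the multi-tRNA synthetase complex. Kars and Gars each encode the enzyme of both compartments, mitochondria make glutaminyl-tRNA through an amidotransferase, and Eprs joins the cytosolic glutamate and proline enzymes in a single protein. In amino acid shortage, the transcription factor ATF4 raises many cytosolic synthetase genes through sites in their promoters. SHMT2 also bears on mitochondrial tRNA in human cells, where its 1-carbon units feed a base modification of some tRNAs.

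The RNA-seq libraries were not alike apart from the groups. The 10 markers of red cells summed to 62.1 to 174 TPM in the SHMT2 libraries, against 69.5, 4788 and 924 TPM in vector replicates 1, 2 and 3. The 12 markers of macrophages and other myeloid cells summed to 141 to 238 TPM in SHMT2, against 130, 1035 and 879 TPM in vector. The 8 B cell markers summed to 8320 to 8544 TPM in SHMT2 and to 8894, 6549 and 6427 TPM in vector, and no marker of these 3 lists was at 0 in any library. Vector replicates 2 and 3 thus stood apart. T cell markers summed to 15.2 to 36.7 TPM in SHMT2 and 13.8 to 23.5 TPM in vector, and natural killer cell markers to 21.8 to 41.3 TPM and 23.6 to 64.8 TPM. Stress and dissociation genes summed to 1983 to 3043 TPM in SHMT2 and 2391 to 3119 TPM in vector, and plasma cell markers to 2186 to 4109 TPM in SHMT2 and 1792 to 3131 TPM in vector. Xist, an RNA of female cells, ranged from 2.17 to 1625 TPM over the SHMT2 libraries and from 412 to 2461 TPM over the vector libraries. Ddx3y, a gene of the Y chromosome, measured 75.4, 50.3 and 7.96 TPM in SHMT2 and 0, 69.2 and 17.2 TPM in vector, so RNA of both kinds was present in several libraries. The part of these differences in the results below was not tested except by the values given beside them. In bulk RNA, fewer cells of a type and less RNA per cell cannot be told apart. Shmt2 itself measured 244, 345 and 259 TPM in SHMT2 libraries and 174, 223 and 157 TPM in vector libraries.

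Across the 36 synthetases, most transcripts lay slightly higher in SHMT2 libraries and none passed the test. In limma on log2(TPM + 1), 27 of 36 had a positive log2 fold change (SHMT2 over vector), against 53.2% of the 11117 genes tested. No member had a Benjamini-Hochberg adjusted p under 0.05, as for all genes (0 called, 0%). Without adjustment, 8 members were higher at p under 0.05 (22.2%), where 11.3% of all genes were, and 1 member was lower (2.78%), where 5.40% of all genes were. The share of higher members stood above that of all genes only while vector replicates 2 and 3 entered without the markers, among these 3 fits. With the mean level of the red cell and myeloid markers as a covariate, 3 members (8.33%) were higher at p under 0.05, where 8.96% of all genes were, and without both libraries 3 members were, where 11.8% of all genes were. The number with a positive log2 fold change was 28 of 36 with the covariate, against 58.1% of all genes, and 25 of 36 without both libraries, against 60.3%. In 11 members (30.6%) every SHMT2 library lay above every vector library, as in 16.9% of all genes, and in 1 member every SHMT2 library lay below, as in 8.26% of all genes. The smallest adjusted p among the members, that of Farsb, was 0.204.

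**Figure D1:**
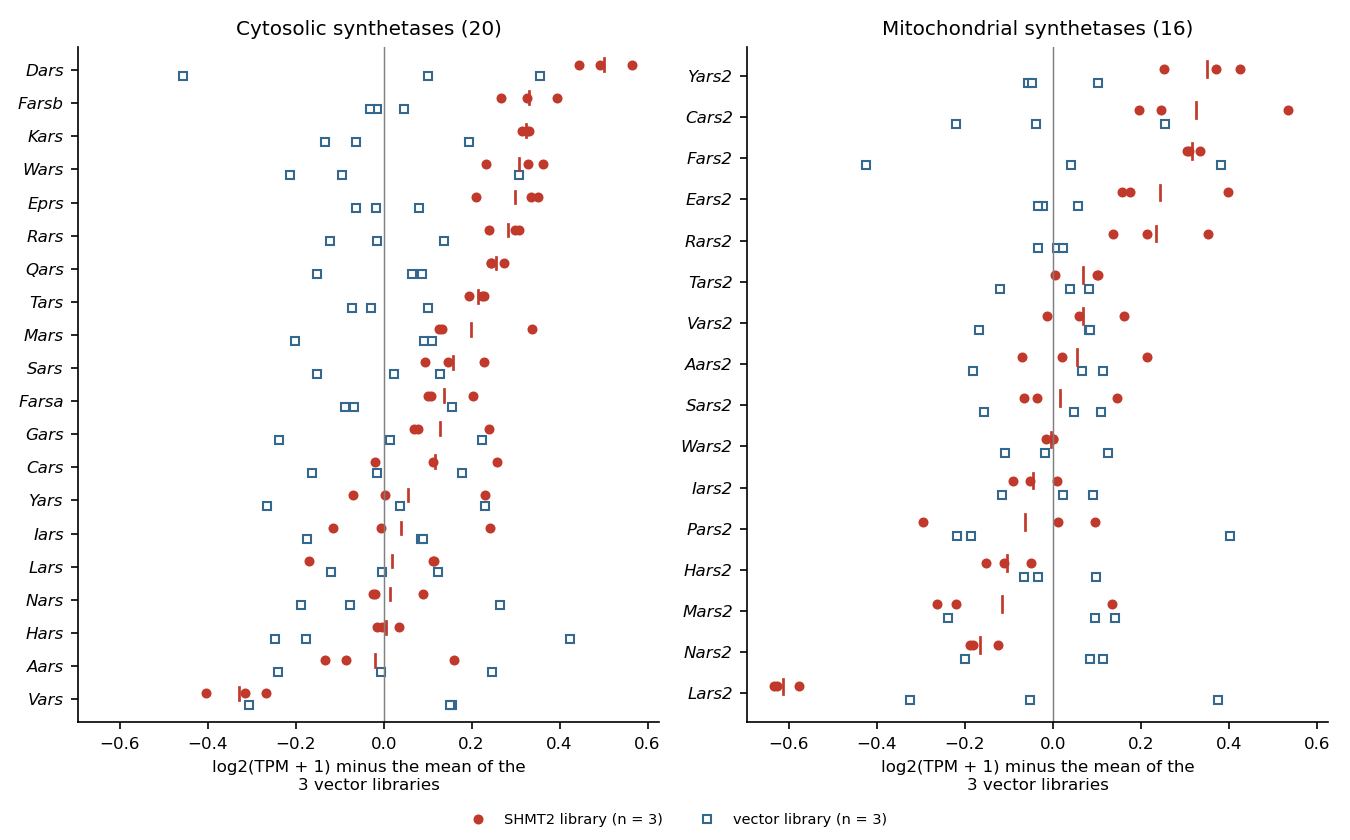
Each row is a synthetase gene and each symbol a library (filled circles, 3 SHMT2 libraries; open squares, 3 vector libraries), placed by log2(TPM + 1) minus the mean of the 3 vector libraries, with a tick at the mean of the SHMT2 libraries. In the cytosolic set 18 of 20 ticks lie right of 0, in the mitochondrial set 9 of 16, and Lars2 lies farthest to the left.

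The 2 sets leaned to different extents. Of the 20 cytosolic synthetases, 18 had a positive log2 fold change, with a median of 0.15, and 8 had SHMT2 libraries wholly above vector libraries. Of the 16 mitochondrial synthetases, 9 had a positive log2 fold change, with a median of 0.04, 3 (18.8%) had SHMT2 libraries wholly above and 1, Lars2, wholly below. The median over all genes tested was 0.02. Of these genes, 53.2% had a positive value, 16.9% had SHMT2 libraries wholly above and 8.26% wholly below. With the marker covariate the medians were 0.17 for the cytosolic set, 0.03 for the mitochondrial set and 0.05 for all genes. Leaving out vector replicate 3 gave a cytosolic median of 0.09 and leaving out replicate 2 gave 0.21. The mitochondrial median was −0.02 when vector replicate 3 was left out and 0.08 when replicate 1 was. The gap between the 2 medians, 0.11, has no test of its own here.

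Within the cytosolic set, the members of the multi-tRNA synthetase complex and those outside it were counted apart. All 8 of its synthetases had a positive log2 fold change, with a median of 0.27, and in 6 of them (75.0%) the groups did not overlap. Of the 12 cytosolic synthetases outside it, 10 had a positive log2 fold change, with a median of 0.12, and in 2 (16.7%) the groups did not overlap. Of all genes tested, 53.2% had a positive value and 16.9% had SHMT2 libraries wholly above. The gap between the medians was smaller in the fits that bear on vector replicates 2 and 3. The marker covariate gave medians of 0.17 in the complex (7 of 8 positive, Iars at −0.01) and 0.16 outside it. Without both libraries they were 0.14 in the complex (7 of 8 positive, Iars at −0.04) and 0.12 outside it. In those fits 58.1% and 60.3% of all genes had positive values. The difference between these subsets was not tested.

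Eprs (chromosome 1), the fused glutamate and proline enzyme, measured 302, 305 and 276 TPM in SHMT2 libraries and 253, 229 and 236 TPM in vector libraries. Every SHMT2 library was above every vector library. Its log2 fold change was 0.30 (SE 0.08), with a limma p of 0.0106 and an adjusted p of 0.206. Kars (chromosome 8), the lysine enzyme of both compartments, measured 176, 175 and 176 TPM in SHMT2 and 161, 134 and 128 TPM in vector. The SHMT2 values were nearly equal, and the spread lay in the vector group, whose replicate 1 was closest to SHMT2. The log2 fold change was 0.32 (SE 0.10), with a limma p of 0.0200 and an adjusted p of 0.227, and it was 0.13 without both vector replicates 2 and 3.

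Rars, the arginine enzyme, measured 32.6, 31.3 and 32.8 TPM in SHMT2 and 29.0, 24.1 and 26.0 TPM in vector, a log2 fold change of 0.28 (limma p 0.0234, adjusted p 0.239). Qars, the glutamine enzyme, measured 5304, 5196 and 5196 TPM in SHMT2 and 4660, 3946 and 4583 TPM in vector, a log2 fold change of 0.25 (limma p 0.0407, adjusted p 0.279). In both the groups were apart and vector replicate 2 was lowest. With the marker covariate the log2 fold changes were 0.17 for Rars and 0.17 for Qars, and without vector replicates 2 and 3 they were 0.15 and 0.17. Dars, the aspartate enzyme, had the largest positive log2 fold change of the 36, 0.50 (SE 0.21, limma p 0.0513, adjusted p 0.303), from 63.1, 65.2 and 68.7 TPM in SHMT2 and 59.3, 33.4 and 49.5 TPM in vector. Its size followed vector replicates 2 and 3, the libraries with high red cell and myeloid markers. The log2 fold change of Dars was 0.17 with the marker covariate. Without both libraries it was 0.14, and without vector replicate 2 alone it was 0.27. Mars, the methionine enzyme, measured 151, 174 and 150 TPM in SHMT2 and 147, 149 and 120 TPM in vector, groups that just fail to overlap (log2 fold change 0.20, limma p 0.144, adjusted p 0.424). Without vector replicate 3, the lowest library, the value for Mars was 0.10. The other 2 synthetases of the complex, Lars and Iars, overlapped between groups and had log2 fold changes of 0.02 and 0.04.

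Outside the complex, Farsb, the beta subunit of the phenylalanine enzyme, had the smallest p of the 36. It measured 28.5, 26.0 and 27.1 TPM in SHMT2 libraries and 22.1, 21.2 and 21.0 TPM in vector libraries. The gap between the groups was wider than the range within either one. The log2 fold change was 0.33 (SE 0.08), with a limma p of 0.00581, an adjusted p of 0.204 and an exact permutation p of 0.1, below which this design cannot go. Farsa, the alpha subunit of the same enzyme, had a log2 fold change of 0.14 (SE 0.10) and overlapping groups, from 13.0, 12.0 and 12.1 TPM in SHMT2 and 10.6, 12.5 and 10.4 TPM in vector. Tars, the threonine enzyme, measured 1793, 1800 and 1757 TPM in SHMT2 and 1462, 1648 and 1505 TPM in vector. Its groups did not overlap, with a log2 fold change of 0.21 (SE 0.08, limma p 0.0401, adjusted p 0.278).

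Vars, the valine enzyme, was the only cytosolic member besides Aars with a negative log2 fold change. It measured 294, 304 and 277 TPM in SHMT2 libraries and 296, 408 and 407 TPM in vector libraries. Vector replicate 1 fell within the SHMT2 range, and replicates 2 and 3 were high. The log2 fold change was −0.33 (SE 0.14), with a limma p of 0.0615 and an adjusted p of 0.321. Wars, the tryptophan enzyme, showed the mirror image, with 17.2, 18.5 and 18.9 TPM in SHMT2 and 18.2, 12.4 and 13.53 TPM in vector (log2 fold change 0.31, limma p 0.0860, adjusted p 0.357). Without both vector replicates 2 and 3 the log2 fold changes were −0.02 for Vars and 0.00 for Wars. The groups of Sars, Cars, Gars, Yars, Nars, Hars and Aars, the other cytosolic members outside the complex, overlapped, with log2 fold changes from 0.16 in Sars, the serine enzyme, to −0.02 in Aars, the alanine enzyme. Sars had 0.03 without both vector replicates 2 and 3.

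Leaving out vector replicate 1, which keeps the 2 vector libraries with high red cell and myeloid markers, brought 2 synthetases past the threshold. Kars was then higher, with a log2 fold change of 0.42 (limma adjusted p 0.0407), among 3.88% of all genes called higher in that fit. Vars was lower, with a log2 fold change of −0.48 (limma adjusted p 0.0385), among 3.72% of all genes called lower. With the red cell and myeloid marker covariate on all 6 libraries, the log2 fold changes were 0.19 for Kars (limma adjusted p 0.436) and −0.11 for Vars (limma adjusted p 0.686). Both calls thus rest on setting vector replicates 2 and 3 alone against SHMT2.

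**Figure D2:**
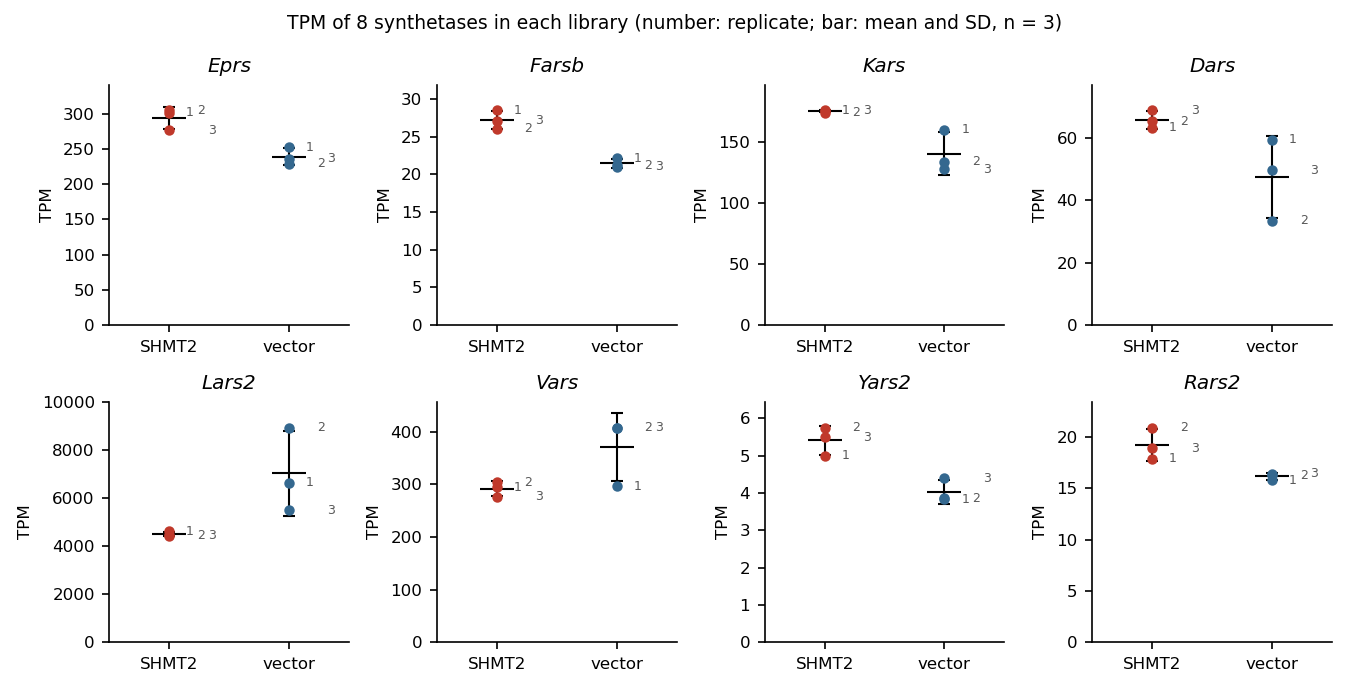
TPM of 8 synthetases in each library (points, with the replicate number beside them) for SHMT2 and vector, with the mean and SD of 3 libraries as a bar. The SHMT2 values of Kars and Lars2 are tightly grouped, and in Dars and Vars vector replicate 1 lies close to the SHMT2 libraries.

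Among the mitochondrial enzymes, Yars2 and Rars2 lay higher in every SHMT2 library. Yars2, the mitochondrial tyrosine enzyme, measured 5.00, 5.76 and 5.50 TPM in SHMT2 and 3.84, 3.87 and 4.40 TPM in vector. Its log2 fold change, 0.35 (SE 0.11), was the largest positive one of the mitochondrial set, with a limma p of 0.0213 and an adjusted p of 0.234. Rars2, the mitochondrial arginine enzyme, measured 17.9, 20.9 and 18.9 TPM in SHMT2 and 15.8, 16.3 and 16.4 TPM in vector (log2 fold change 0.23, SE 0.09, limma p 0.0410, adjusted p 0.280). In both genes vector replicate 1 was the lowest of the 6 libraries, whereas in Dars and Vars it lay nearest to SHMT2. With the red cell and myeloid marker covariate the log2 fold changes were 0.36 for Yars2 and 0.25 for Rars2, with limma adjusted p of 0.344 and 0.407. Ears2, the mitochondrial glutamate enzyme, measured 7.73, 6.38 and 6.47 TPM in SHMT2 and 5.51, 5.46 and 5.88 TPM in vector (log2 fold change 0.24, limma p 0.0725, adjusted p 0.339).

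Lars2, the mitochondrial leucine enzyme, was the member farthest below 0. It measured 4615, 4462 and 4436 TPM in SHMT2 libraries and 6643, 8937 and 5497 TPM in vector libraries. The SHMT2 libraries lay within a narrow band below all vector libraries, which were spread widely. The log2 fold change was −0.61 (SE 0.18), with a limma p of 0.0150, an adjusted p of 0.212 and an exact permutation p of 0.1. Leaving out vector replicate 2 gave −0.42, leaving out vector replicate 3 gave −0.77, and the value was −0.49 with the red cell and myeloid marker covariate. The gene carries sequence related to ribosomal RNA in mouse, and whether such reads enter its value was not tested.

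The other 12 mitochondrial members overlapped between groups. Their log2 fold changes ran from −0.16 in Nars2 to 0.33 in Cars2, the mitochondrial cysteine enzyme. Fars2, the mitochondrial phenylalanine enzyme, had 0.32 (SE 0.21), from 6.01, 6.13 and 5.99 TPM in SHMT2 and 6.38, 3.21 and 4.82 TPM in vector, against −0.02 in the fit with the markers and −0.07 when vector replicates 2 and 3 were left out. Pars2, the mitochondrial proline enzyme, had a log2 fold change of −0.06 (SE 0.22), from 2.66, 3.79 and 3.53 TPM in SHMT2 and 2.95, 2.86 and 4.93 TPM in vector. The remaining members of the set, Aars2, Hars2, Iars2, Mars2, Sars2, Tars2, Vars2 and Wars2, had log2 fold changes between −0.12 and 0.07.

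Levels of different synthetases should not be ranked in these tables. Qars, Tars and Lars2 held 80.5 to 81.7% of the summed cytosolic TPM (Qars and Tars) and 93.9 to 94.3% of the summed mitochondrial TPM (Lars2) in SHMT2 libraries, against 77.5 to 80.4% and 95.3 to 96.8% in vector libraries. Qars and Lars2 lie on distal chromosome 9 and Tars on proximal chromosome 15. The bounds of the 2 regions compared next were chosen after the levels were seen, and the regions include these 3 genes. The 217 expressed genes of chromosome 9 from 100 Mb on had a median of 179 TPM, and the 70 of chromosome 15 up to 40 Mb a median of 122 TPM, against 19.8 TPM for the 9124 other autosomal genes. The median log2 fold changes of those 3 groups of genes were 0.04, −0.02 and 0.02. The surroundings of the 3 genes were not alike. Of the 20 nearest expressed genes, 6 were over 1000 TPM around Qars (median 478 TPM), 4 around Tars (median 101.5 TPM) and 2 around Lars2 (median 36.4 TPM). High values of Qars and Tars thus stand among high neighbours, and that of Lars2 less so. Which step of the authors' processing lies behind these levels was not tested. The results here compare libraries within a gene, and whether that step acted alike in every library was not tested.

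Lars2 holds most of the mitochondrial sum, and Qars and Tars most of the cytosolic one. The cytosolic sum was also apart between groups, at 8713, 8695 and 8512 TPM in SHMT2 and 7647, 7216 and 7570 TPM in vector. The ratio of summed mitochondrial to summed cytosolic TPM thus carries little beyond these 3 genes. It was 0.562, 0.546 and 0.553 in SHMT2 libraries and 0.903, 1.28 and 0.762 in vector libraries. Without Qars, Tars and Lars2, a choice made after seeing the levels, it was 0.175, 0.169 and 0.173 in SHMT2 and 0.173, 0.180 and 0.184 in vector. The difference of the group means was −0.428 with all members and −0.00690 without these 3.

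Library by library, the cytosolic set overlapped between groups. As a median over its 20 genes of log2(TPM + 1) minus the gene's mean over the 6 libraries, it stood at 0.08, 0.15 and 0.04 in SHMT2 replicates 1, 2 and 3, and at −0.03, 0.04 and −0.19 in vector replicates 1, 2 and 3. Vector replicate 3 held the lowest value of 11 of the 20 genes, and SHMT2 replicate 2 the highest value of 8. Vector replicate 2 was mixed, with the highest value of 5 genes, the lowest of 5 others, and 11 of 20 above their mean. The mitochondrial set stood at 0.02, 0.05 and −0.02 in SHMT2 and at −0.05, 0.05 and −0.08 in vector, with vector replicate 3 lowest for 6 of 16 genes. Over all genes tested the same medians lay between −0.04 and 0.04. The coefficient of variation was larger in vector than in SHMT2 for 29 of the 36 members, a share of 80.6%, as for 78.5% of all genes.

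Set side by side by amino acid, 17 pairs of cytosolic and mitochondrial genes could be formed, counting the phenylalanine subunits singly and Eprs for both its amino acids. In 12 pairs the cytosolic gene had the higher log2 fold change, in 5 the mitochondrial one, and the median difference was 0.08. The widest gap was that of leucine, with 0.02 for Lars and −0.61 for Lars2. Among the other pairs in which the cytosolic gene was higher, the widest were proline, with 0.30 for Eprs and −0.06 for Pars2, and methionine, with 0.20 for Mars and −0.12 for Mars2. The order was opposite for valine, whose gap was the second widest of the 17, with −0.33 for Vars and 0.07 for Vars2, and for tyrosine, with 0.05 for Yars and 0.35 for Yars2. Both genes of the arginine and glutamate pairs had SHMT2 libraries wholly above vector libraries: Rars and Rars2, and Eprs and Ears2. For the histidine pair, Hars and Hars2, and the asparagine pair, Nars and Nars2, the cytosolic values were 0.00 and 0.02 and the mitochondrial ones −0.10 and −0.16. The order within pairs depended on vector replicates 2 and 3. Without both, the mitochondrial gene became the higher for glutamate, isoleucine, methionine and arginine. The cytosolic gene became the higher for alanine and the phenylalanine alpha subunit. The valine pair then had −0.02 for Vars and −0.01 for Vars2.

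**Figure D3:**
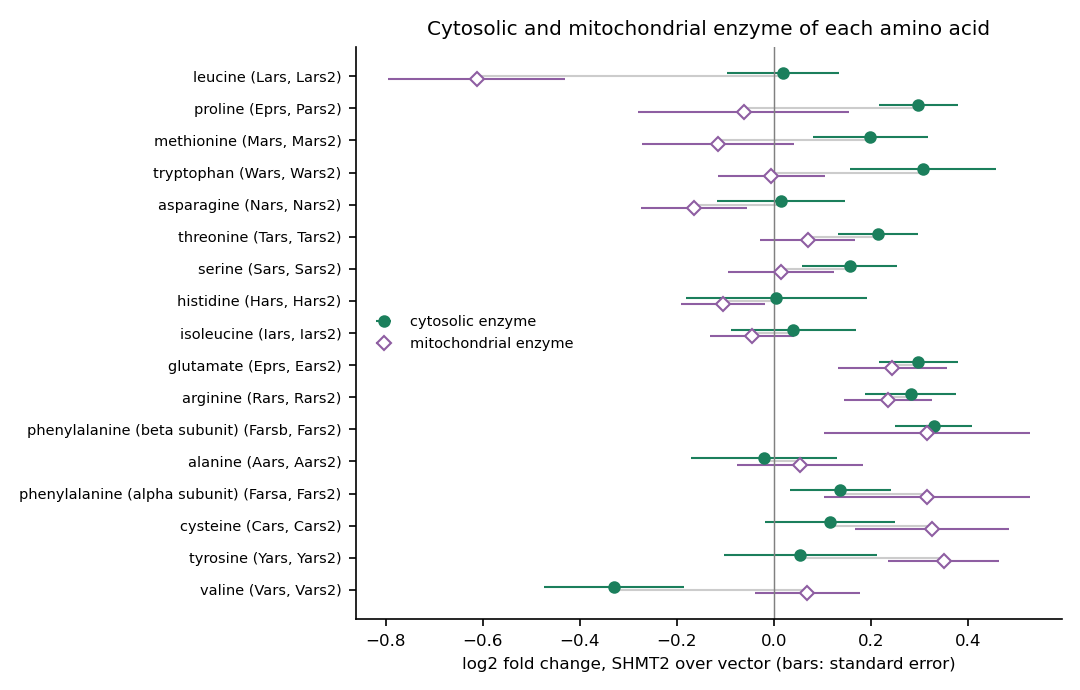
Log2 fold change (SHMT2 over vector, with standard error) of the cytosolic (filled circle) and mitochondrial (open diamond) enzyme of each amino acid, ordered by the difference between them. Leucine stands apart at the top through Lars2 at −0.61, and for glutamate and arginine both enzymes lie between 0.23 and 0.30.

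Counts by structural class were close, beside 53.2% of all genes tested with a positive log2 fold change. Of the 19 class I synthetases, whose active site is a Rossmann fold, 14 had a positive log2 fold change (median 0.12), and of the 17 class II synthetases 13 had (median 0.07). Both enzymes that serve the 2 compartments had positive values, 0.32 for Kars and 0.13 for Gars, the glycine enzyme, whose groups overlapped.

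Genes that work beside the synthetases were counted in the same fit, in which 53.2% of all genes had a positive log2 fold change. None of them passed the adjusted threshold. All 3 scaffolds of the multi-tRNA synthetase complex had positive log2 fold changes, with a median of 0.29. Aimp1 measured 28.4, 25.2 and 30.4 TPM in SHMT2 and 24.8, 18.5 and 24.0 TPM in vector, and Aimp2 14.7, 16.1 and 16.3 TPM in SHMT2 and 14.4, 13.9 and 10.9 TPM in vector. The groups of the third scaffold, Eef1e1, overlapped. The median of the 3 was 0.19 with the marker covariate and 0.16 without vector replicates 2 and 3. Among further mitochondrial charging genes, Qrsl1, a subunit of the amidotransferase that makes mitochondrial glutaminyl-tRNA, had a log2 fold change of 0.34 with groups apart, and 0.17 with the marker covariate. Mtfmt, which formylates the mitochondrial initiator tRNA with a folate-borne 1-carbon unit, lay lower, at 3.63, 3.89 and 3.94 TPM in SHMT2 and 4.97, 4.43 and 5.04 TPM in vector (log2 fold change −0.27, limma p 0.0495, adjusted p 0.297). Gatc, another amidotransferase subunit, overlapped between groups at 0.23, and had 0.48 with the marker covariate.

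Translation factors of both compartments had mostly positive values. Of all genes tested, 53.2% had a positive value and 16.9% had SHMT2 libraries wholly above. All 5 cytosolic elongation factors had positive log2 fold changes (median 0.25), and in 4 the groups did not overlap. Eef1b2, a subunit of the nucleotide exchange factor of elongation, had 0.32, Eef1g 0.35 and Eef2, the translocase, 0.21, with limma adjusted p of 0.207, 0.222 and 0.285. All 9 mitochondrial translation factors had positive values (median 0.22), led by Mtrf1 at 0.37, Mrrf, the ribosome recycling factor, at 0.46, Mtif3, an initiation factor, at 0.27 and Gfm2 at 0.24. With the marker covariate 7 of the 9 were positive (median 0.16), against 58.1% of all genes. Without vector replicates 2 and 3 also 7 were (median 0.10), against 60.3%. Mtrf1 had 0.37 and 0.39 in those fits, Mrrf 0.20 and 0.12, Mtif3 0.17 and 0.19, and Gfm2 0.17 and 0.09. Of 12 mitochondrial tRNA processing and modification genes, 7 had positive values (median 0.02). In 3 of them the groups were apart: Gtpbp3, which modifies the wobble base of some mitochondrial tRNAs, at 0.33, Hsd17b10, a subunit of mitochondrial RNase P, at 0.42, and Pus1, a pseudouridine synthase, at 0.21. In the same fits Gtpbp3 had 0.22 and 0.19, Hsd17b10 0.26 and 0.25, and Pus1 0.11 and 0.05. Trit1, which adds an isopentenyl group beside the anticodon, had 0.18 and overlapping groups.

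The synthetases known as ATF4 targets had a median below that of the whole cytosolic set. Of the 13 on that list, 11 (84.6%) had a positive log2 fold change, with a median of 0.12, against 53.2% of all genes. In 3 (23.1%), Eprs, Mars and Tars, SHMT2 libraries lay wholly above, against 16.9% of all genes. SHMT2 replicate 2 held the highest value of 8 of the 13 and vector replicate 3 the lowest of 7. Of 15 ATF4 targets that are not synthetases, 13 were tested and 6 had positive values, with a median of −0.01. The marker covariate gave 12 of 13 positive values, with a median of 0.26, and without vector replicates 2 and 3 also 12, with 0.17. Of all genes, 58.1% and 60.3% were positive in those fits. Psat1 of serine synthesis measured 15.5, 16.1 and 14.2 TPM in SHMT2 and 12.0, 7.23 and 6.97 TPM in vector. Ddit4, an inhibitor of mTORC1, measured 10.8, 12.7 and 13.8 TPM in SHMT2 and 14.9, 43.3 and 68.9 TPM in vector. Phgdh of serine synthesis overlapped between groups, with a log2 fold change of 0.47, beside 0.78 for Psat1 and −1.45 for Ddit4. With the marker covariate the values were 0.45 for Psat1, −0.67 for Ddit4 and 0.26 for Phgdh. Without vector replicates 2 and 3 they were 0.33 for Psat1, −0.24 for Ddit4 and 0.10 for Phgdh. Shmt2 is itself on this list, and transcripts of the vector and of the mouse gene cannot be told apart there. Atf4 measured 148, 129 and 129 TPM in SHMT2 and 125, 145 and 133 TPM in vector, overlapping values with a log2 fold change of 0.01.

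The promoters of the synthetases hold known regulatory letters, and 27 of the 36 genes had an entry in the RefSeq promoter table of GRCm38.p6, the build also called mm10. Each entry runs from 250 bases before to 50 bases after the annotated start. TGATGCAA, the form of amino acid response element that ATF4 binds with its partners, was found on either strand in 4 of 27 members. These were Aars, Iars, Tars and Yars, all cytosolic. Of the 16457 promoters 0.760% held it, and of the 9912 with H3K4me3 in at least 1 library 0.545%. The E-box CACGTG, a binding sequence of MYC and related factors, occurred in 5 members (18.5%), Aars, Ears2, Farsb, Iars and Tars. It occurred in 1317 of the 16457 promoters (8.0%) and in 10.3% of those with H3K4me3. The 4 promoters with TGATGCAA are printed because they carry that element, and Farsb because it had the smallest p of the cytosolic set. All are written 5′ to 3′ on the strand of the gene, with TGATGCAA and CACGTG, on either strand, in capitals: Aars chr8:111033592-111033891 (plus strand), Iars chr13:49681880-49682179 (plus strand), Tars chr15:11399609-11399908 (minus strand), Yars chr4:129189653-129189952 (plus strand) and Farsb chr1:78488848-78489147 (minus strand).
Aars: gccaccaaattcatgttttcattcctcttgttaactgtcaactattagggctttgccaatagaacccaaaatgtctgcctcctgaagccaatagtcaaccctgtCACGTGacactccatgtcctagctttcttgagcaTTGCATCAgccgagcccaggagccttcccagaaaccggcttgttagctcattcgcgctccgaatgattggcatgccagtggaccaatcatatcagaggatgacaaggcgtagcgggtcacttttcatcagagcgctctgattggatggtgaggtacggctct
Iars: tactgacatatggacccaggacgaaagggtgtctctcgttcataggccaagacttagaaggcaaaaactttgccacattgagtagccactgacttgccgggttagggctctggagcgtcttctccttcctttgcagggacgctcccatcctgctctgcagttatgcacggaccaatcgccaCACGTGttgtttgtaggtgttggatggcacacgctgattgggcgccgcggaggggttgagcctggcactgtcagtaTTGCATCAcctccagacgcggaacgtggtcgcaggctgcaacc
Tars: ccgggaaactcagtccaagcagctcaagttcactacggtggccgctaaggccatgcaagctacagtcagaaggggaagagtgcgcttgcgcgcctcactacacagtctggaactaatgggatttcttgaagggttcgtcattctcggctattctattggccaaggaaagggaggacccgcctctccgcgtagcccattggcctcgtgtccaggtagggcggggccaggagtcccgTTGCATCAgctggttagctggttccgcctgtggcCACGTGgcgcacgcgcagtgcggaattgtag
Yars: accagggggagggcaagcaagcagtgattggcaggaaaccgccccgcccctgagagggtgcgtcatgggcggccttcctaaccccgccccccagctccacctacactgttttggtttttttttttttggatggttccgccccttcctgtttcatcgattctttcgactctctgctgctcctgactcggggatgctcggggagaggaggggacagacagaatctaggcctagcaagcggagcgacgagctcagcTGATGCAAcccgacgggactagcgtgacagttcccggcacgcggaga
Farsb: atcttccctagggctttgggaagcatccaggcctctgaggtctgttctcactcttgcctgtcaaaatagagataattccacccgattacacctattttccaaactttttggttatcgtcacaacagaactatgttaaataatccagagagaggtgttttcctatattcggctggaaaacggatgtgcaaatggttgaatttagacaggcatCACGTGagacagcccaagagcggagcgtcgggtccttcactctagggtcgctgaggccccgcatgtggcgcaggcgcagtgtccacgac

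The element lay 112 bases before the start in Aars and 15 bases before it in Tars, counted to its first letter in the printed strand, and from base 4 after the start in Yars and base 8 in Iars. These 4 genes did not move together. Tars had groups apart and a log2 fold change of 0.21, while Aars, Iars and Yars overlapped, at −0.02, 0.04 and 0.05. A match of letters describes the sequence and does not show that a factor binds there.

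The other motifs searched are more common. CCGGAAG, a core of ETS factor sites, occurred in 9 of 27 members (33.3%), against 12.4% of all promoters and 19.0% of the 9912 with H3K4me3 in at least 1 library. TGCGCA, the core of the NRF1 site, occurred in 7 members (25.9%), against 10.2% of all promoters and 14.8% of the marked ones. CCAAT occurred in 13 members (48.1%), against 38.9% of all promoters and 38.9% of the marked ones. None of these 3 motifs shares letters with another in the promoters printed next, and ETS and NRF1 letters were spread over both sets: 5 and 4 cytosolic, 4 and 3 mitochondrial. Both occur together in 5 members, Gars, Kars, Mars2, Rars2 and Sars, of which Kars and Rars2 had groups apart and the other 3 did not. None of the 5 motifs was found in 8 of the 27 members, Aars2, Dars, Fars2, Lars2, Nars2, Vars2, Wars2 and Yars2. Both Dars, with the largest positive log2 fold change, and Lars2, with the lowest, are thus among them. The shares of all promoters with both ETS and NRF1 letters, or with none of the 5 motifs, are not given here. Kars and Rars2 are shown because each faces another gene across its start, and Lars2 because it was farthest below 0. They are printed as before, with CCGGAAG and TGCGCA on either strand in capitals: Kars chr8:112011305-112011604 (minus strand), Rars2 chr4:34614707-34615006 (plus strand) and Lars2 chr9:123366677-123366976 (plus strand).
Kars: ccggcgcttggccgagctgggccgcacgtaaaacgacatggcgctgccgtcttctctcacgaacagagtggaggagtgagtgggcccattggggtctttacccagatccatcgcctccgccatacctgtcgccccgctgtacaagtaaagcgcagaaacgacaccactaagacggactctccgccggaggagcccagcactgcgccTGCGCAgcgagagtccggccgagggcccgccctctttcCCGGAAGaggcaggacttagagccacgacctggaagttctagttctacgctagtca
Rars2: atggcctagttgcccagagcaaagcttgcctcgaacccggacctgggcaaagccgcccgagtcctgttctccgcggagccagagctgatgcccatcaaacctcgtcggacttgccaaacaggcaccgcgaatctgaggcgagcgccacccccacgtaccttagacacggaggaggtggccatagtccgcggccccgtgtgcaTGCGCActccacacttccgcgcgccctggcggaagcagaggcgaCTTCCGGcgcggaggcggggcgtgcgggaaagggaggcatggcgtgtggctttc
Lars2: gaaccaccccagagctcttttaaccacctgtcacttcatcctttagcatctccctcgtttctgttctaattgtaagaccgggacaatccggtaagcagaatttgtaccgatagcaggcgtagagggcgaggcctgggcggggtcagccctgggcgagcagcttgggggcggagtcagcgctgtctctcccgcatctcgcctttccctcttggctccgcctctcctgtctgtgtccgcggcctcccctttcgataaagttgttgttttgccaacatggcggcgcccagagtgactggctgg

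Of the 36 members, 10 (27.8%) have the start of another gene within 1 kb, against 16.8% of the 12111 starts marked by H3K4me3. The start of Kars lies 5 bases from that of Terf2ip, a telomere protein gene on the opposite strand, which measured 76.2, 105 and 98.1 TPM in SHMT2 and 98.3, 73.6 and 109 TPM in vector (log2 fold change 0.00). The start of Rars2 lies 15 bases from that of Orc3, an origin recognition gene on the opposite strand with a log2 fold change of −0.06. In both, the synthetase had groups apart and the facing gene did not. Sars2 faces Mrps12, a mitochondrial ribosomal protein gene, 147 bases away, where it was the neighbour whose groups were apart (log2 fold change 0.29, against 0.02 for Sars2). Fars2 faces Lyrm4, 286 bases away, with 0.36 for Lyrm4 and 0.32 for Fars2, both with overlapping groups. With the marker covariate these values were −0.04 and −0.02, and without vector replicates 2 and 3 they were −0.13 and −0.07. Ears2 faces Ubfd1 at 112 bases, Yars faces S100pbp at 324 bases, and Hars and Hars2 face each other with spans that overlap by a few bases. The neighbours of Wars and Vars were not tested in RNA-seq.

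Methylation at the gene starts was close to 0 in nearly all synthetases, and no difference between groups passed the test. Starts of 35 members were covered, by 4 to 133 cytosines within 1 kb and by 267 to 11550 calls per library. In 33 of the 35, the methylation level was under 2% in all 6 libraries, with a highest value of 1.26%. On average it was under 2% in 77.8% of the 10800 gene starts covered. Only starts with H3K4me3 in at least 1 library were taken, so these are not shares over all genes. In the moderated binomial model none of the 35 had an adjusted p under 0.05 with a difference of at least 10 points, as for all marked starts tested (0 of 10790, 0%). Hars alone had an unadjusted p under 0.05, where 3.61% of the marked starts tested did, with 0.216, 0.185 and 0.0776% in SHMT2 and 0.332, 0.501 and 0.431% in vector. That is a difference of −0.26 points (p 0.0317, adjusted p 0.923). The window also holds the end that Hars2 shares with Hars, 3 bases away, and Hars2 was not counted separately.

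The 2 starts above 2% were those of Iars and Aars. At Iars, 4 cytosines between 655 and 540 bases before the start gave 54.6, 64.0 and 44.3% in SHMT2 and 50.6, 44.0 and 47.9% in vector. The groups overlapped, with a difference of 6.80 points (p 0.281, adjusted p 0.923) that was 1.95 points without SHMT2 replicate 2 and 11.8 points without SHMT2 replicate 3. None of those cytosines lies in the printed promoter. At Aars, 23 cytosines gave 10.9, 8.44 and 8.84% in SHMT2 and 10.9, 10.3 and 8.96% in vector. Nearly all of this came from 2 cytosines, 576 and 500 bases before the start, which read 94.0 to 100% in SHMT2 and 87.7 to 100% in vector. The other 21, from 77 bases before to 208 after the start, read at most 3.70% in any library. Over the 34 members with a covered cytosine within 300 bases of the start, none of 943 such cytosines had a mean over 5%.

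**Figure D4:**
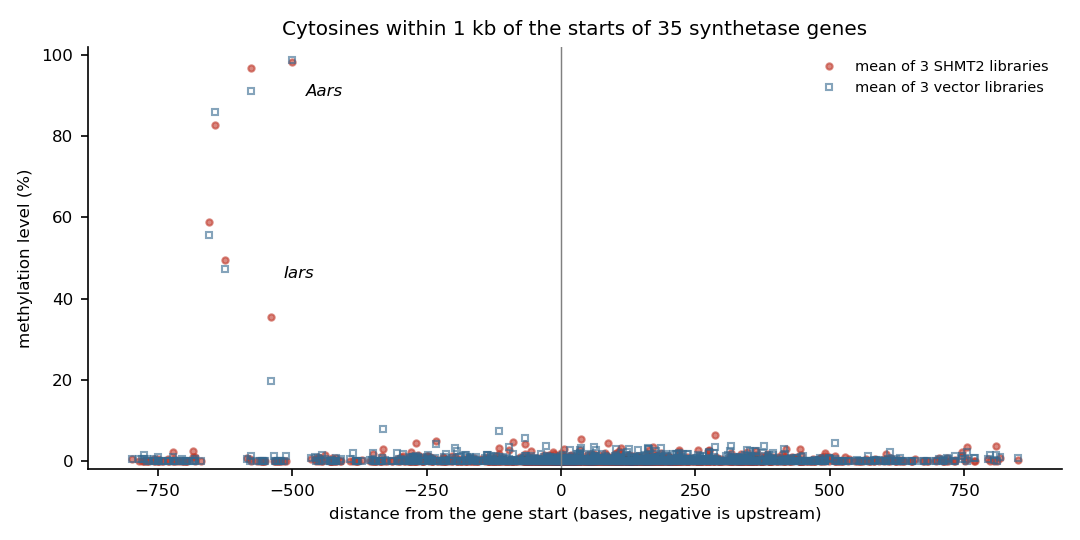
Methylation level in percent of each covered cytosine against its distance from the gene start in bases, for 35 synthetase genes; filled circles are means of 3 SHMT2 libraries and open squares means of 3 vector libraries. The cytosines well above 0 lie 500 to 655 bases upstream in Aars and Iars, and none within 300 bases of a start exceeds 5% in the mean of the 6 libraries.

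The far ends of 9 members were also covered, and most were methylated. The level was 85.7 to 96.6% in SHMT2 libraries and 84.5 to 97.5% in vector libraries over Rars2, Sars2, Cars2, Mars and Tars. Over all genes with a start marked by H3K4me3 and a covered far end the median was 83.4%. Aars2 read 69.8, 67.7 and 73.9% in SHMT2 and 67.0, 67.4 and 74.2% in vector. The far end of Vars read 75.4, 84.2 and 70.9% in SHMT2 and 72.3, 56.2 and 51.2% in vector, over 6 cytosines near the start of Vwa7. The groups overlap there, and vector replicates 2 and 3, the low ones, carry the same numbers as the RNA-seq libraries in which Vars was high, but nothing links libraries of the 2 assays by number. The far ends of Aars and Qars were unmethylated, with means of 0.126 and 0.0447% in SHMT2 and 0.175 and 0.0441% in vector. The start of Exosc6 lies within 1 kb of the far end of Aars, and at the far end of Qars an H3K4me3 peak was present in all 5 libraries.

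All 36 synthetases carried H3K4me3, a mark of active gene starts, within 1 kb of the start in all 5 libraries. Of all genes with an annotated start 56.3% did, and of those among them tested in RNA-seq 92.8% did. Hars2, whose 2 ends are both marked, was taken at the end it shares with Hars, and for 8 members without an entry in the promoter table the marked end was taken as the start. For these the mark helped to set the place, so its presence there is no result. With the peak over the start itself required, 31 members were marked in all 5 libraries, and with at least 500 bases covered 35 were. The exception was Aars2, whose peaks covered 590, 449 and 359 bases in SHMT2 and 393 and 466 bases in vector and stood at the 47.6 to 62.1 percentile of fold enrichment, the authors' value, in SHMT2 lists and at the 42.1 and 43.8 percentile in vector lists. The median percentile over the members was 88.6 to 93.2 in SHMT2 lists and 91.1 and 93.6 in vector lists.

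The length covered by H3K4me3 was described without a test. In 7 members the SHMT2 libraries were wholly above the vector libraries, where 28.0% of the 11272 starts marked in all 5 libraries were, and in 1 member, Dars, wholly below, where 1.11% were. Of the 7, 5 are mitochondrial: Lars2, Pars2, Rars2, Tars2 and Wars2. The cytosolic ones are Aars and Farsa. Rars2 was covered over 2001, 2001 and 1967 bases in SHMT2 and 1837 and 1658 bases in vector, and Lars2 over 1281, 1303 and 1219 bases in SHMT2 and 1210 and 1164 bases in vector. Rars2 transcripts lay higher and Lars2 transcripts lower in SHMT2. Dars was covered over 1229, 1043 and 1061 bases in SHMT2 and 1268 and 1282 bases in vector, while its transcripts lay higher in SHMT2. SHMT2 lists held 34458 to 38249 H3K4me3 peaks and vector lists 33313 and 33806, and the covered length moves with how much was called.

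H3K4me1, a mark of enhancers and promoter flanks, covered more bases around the synthetases in SHMT2 lists, as it did elsewhere. In 23 of 36 members both SHMT2 libraries lay above both vector libraries, where 65.5% of all marked starts did, and in none were they below, where 0.630% were. The members' median cover was 977 and 1055 bases in SHMT2 and 554 and 497 bases in vector. Over all marked starts it was 1005 and 954 bases in SHMT2 and 553 and 432 bases in vector. SHMT2 lists held 48993 and 52056 H3K4me1 peaks and vector lists 37274 and 33119, so the part of the list length in this difference cannot be told apart from a change at these genes. Among the members, 13 of the 16 mitochondrial and 10 of the 20 cytosolic genes were in the 23, a split that was not tested. Wide gaps stood at Dars, with 1423 and 1464 bases in SHMT2 and 0 and 149 bases in vector, and at Sars2, with 1989 and 1988 bases in SHMT2 and 551 and 706 bases in vector. Vars had almost none, with 0 and 137 bases in SHMT2 and 0 in both vector libraries.

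**Figure D5:**
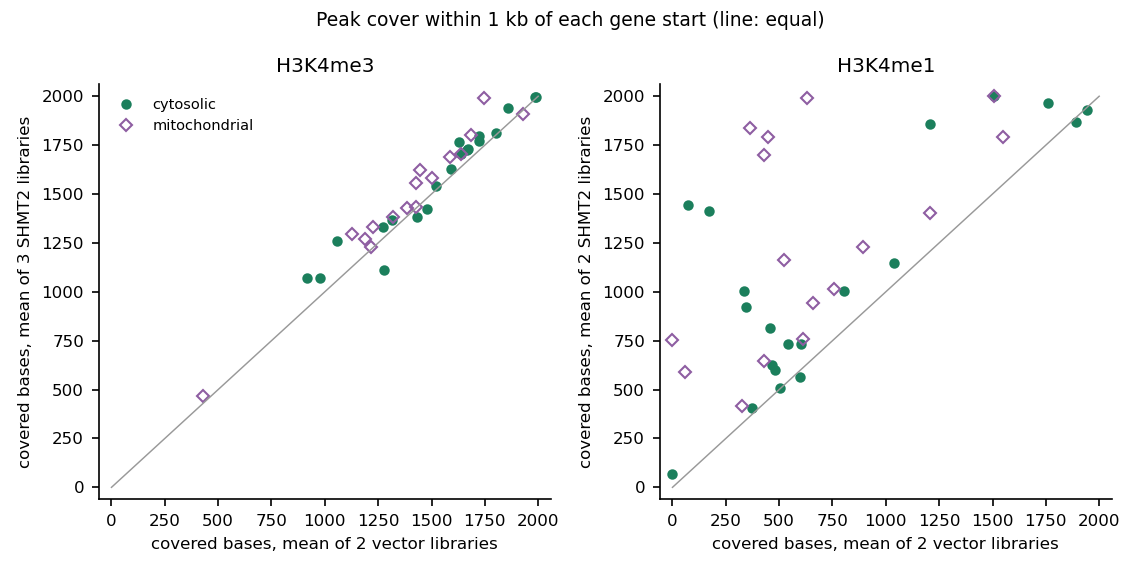
Bases covered by H3K4me3 peaks (left) and H3K4me1 peaks (right) within 1 kb of each gene start, as the mean of SHMT2 libraries (vertical axis) against the mean of vector libraries (horizontal axis), with a line where they are equal. H3K4me3 cover lies near the line in both sets, with Aars2 lowest, and H3K4me1 cover lies mostly above it.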

How the data were processed

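The members and the gene lists were chosen with earlier results of these data known. The authors deposited TPM per gene and library (STAR and mm10 per the submitters' processing notes; the tool that made TPM, and strand use in counting, are not given in the sources used here), so depth is unknown. The deposited peak lists are MACS2 calls per library on BWA alignments, with the authors' fold enrichment ratio and −log10 q-values, used here to rank and filter peaks inside 1 list at a time. The authors' ERRBS tables (Bismark and Bowtie2 named in the notes) give, per the file headers, percent methylated and coverage, the count of calls at each cytosine, with a minimum coverage of 10. ERRBS groups follow the sample titles, although another label names SHMT3 in SHMT2 replicate 2 and SHMT4 in replicate 3. The 6 input libraries were not analysed here. A gene of the list of further mitochondrial charging genes is not reported here.

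Expression was tested with limma 3.58.1 in R 4.3.3 (trend, no block) on log2(TPM + 1), which understates changes of low genes, over the 11117 genes whose mean TPM was at least 1. Gene-start methylation was tested on calls summed over at least 3 cytosines within 1000 bases, at coverage of at least 10 in all 6 libraries, by a quasi-binomial model with limma's variance squeezing. A call needed an adjusted p under 0.05 (Benjamini-Hochberg) and, for methylation, 10 points. Starts came from the RefSeq promoter table or, failing an entry, from the gene end that carried H3K4me3. For methylation, only starts with H3K4me3 in at least 1 library were taken from either source. Both models were tested on simulated data: 60% of log2 changes of 1 and 84% of changes of 2 were called over 11117 genes. For methylation, 94% of simulated 10-point rises over 3000 windows had an adjusted p under 0.05 in the quasi-binomial model. The 10-point threshold was not applied there, and the median estimate was 9.99 points. Falls in methylation were not simulated, and the spread between libraries was an assumed one. Changes of the size seen in the members, from −0.61 to 0.50, were not simulated, nor was spread shared between genes. The share called at those sizes is therefore unknown. Values in every library are given for members whose groups were apart or whose unadjusted p was under 0.05, other members by ranges and counts, and from each list up to 4 genes of smallest p are named. Alternatives were another pseudocount, filter, scaling, block, covariate and libraries left out for expression, another window, coverage, block, test and libraries left out for methylation, and stricter peaks.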

Additional observations from a re-analysis of the deposited data

How the results depend on the processing

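No synthetase was called under 14 of the 15 alternatives for expression, and none under the 10 for methylation; the exception was leaving out vector replicate 1, with 2 members called. The number of all genes called was 0, against 0 to 845 when 1 library was left out (845 without vector replicate 1), 1 with the covariate for red cell and myeloid markers, and 6 when both vector replicates 2 and 3 were left out, a fit that assumes the lone vector library varies like the others. When 1 library was left out, the median log2 fold change ranged from 0.09 to 0.21 for the cytosolic set and from −0.0235 to 0.0846 for the mitochondrial set, the number of cytosolic members above 0 from 13 to 19 and of mitochondrial members from 7 to 10. Under the other alternatives run the medians stayed within the spread between replicates. The difference in the ratio of summed TPM, −0.428, was −0.00690 without Qars, Tars and Lars2, which was added after seeing the data; those 3 hold most of the sums. Over the 12 members with groups apart and Vars, with 194 alternative values, no log2 fold change changed sign, and 2 passed the threshold, Kars and Vars without vector replicate 1. Of the other 23 members 16 changed sign under at least 1 alternative: Fars2, which had 0.32 in the fit reported, −0.02 with the covariate and −0.07 when vector replicates 2 and 3 were left out, and 15 whose log2 fold change lay between −0.16 and 0.07. Pooling the calls in Fisher's exact test, which leaves out the spread between libraries, called 110 gene starts by at least 10 points, against 0.

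Same-numbered RNA-seq libraries did not deviate together (correlations −0.417, −0.332 and −0.058, and −0.103, −0.199 and −0.038 in ERRBS). With 3 libraries per group, these values cannot show whether the numbers pair the samples. With the replicate block 0 members and 0 genes were called for expression and 0 for methylation. In that expression fit 3 members (8.33%) were higher at an unadjusted limma p under 0.05, against 7.14% of all genes. The unknown depth of TPM limits the precision of low genes such as Pars2 and Yars2.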
